A study of Homo sapiens with 12 samples.

Results

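BMP ligands, their antagonist noggin and the ID genes were examined as a group of 10 genes in the dasatinib-sensitive and dasatinib-resistant sublines of RCH-ACV. The members were fixed by name, as the rows for BMP2, BMP4, BMP6, BMP8A, BMP8B, INHBE, NOG, ID2, ID3 and ID4, and all 10 had a row in the RNA-seq table of each clone, among 16875 distinct symbols in all. RCH-ACV, an established human cell line, was derived from B-cell precursor ALL and has a pre-B-cell receptor. The 12 libraries fell into 4 groups of 3, namely sensitive cells of clone 1 and of clone 2, cultured in vehicle (0.1% DMSO), and resistant cells of clone 1 and of clone 2, cultured with dasatinib raised stepwise to at most 1 μM. Dasatinib inhibits several tyrosine kinases, chiefly those of the SRC and ABL families. The libraries of a group came from RNA taken from the subline at different times, and the resistant cells of each clone were a separately generated subline.

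The values described are the means of normalized counts that the authors deposited, 1 per gene and clone, each pooled over the 3 sensitive and 3 resistant libraries of that clone. The other numbers of the tables are the authors' own comparison of resistant with sensitive cells and were not used here. A pooled mean does not separate the states, so nothing below says in which of them a gene was higher, and no spread, interval or p-value over libraries can be attached to it. Clone 1 had 15612 rows and clone 2 had 16848, with median gene means of 406 and 442. The depth of single libraries is unknown. Precursor B-cell markers were present as the label says, with 11 of 12 above the median gene in each clone (IGLL1 at 9233 and 12008, VPREB1 at 2732 and 3559), whereas MME was at 67.7 and 67.0. Of 15 markers of T, myeloid, erythroid, fibroblast and epithelial cells, 10 had no row in either table, and CSF1R was the 1 above the median gene, at 615 and 768.

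BMPs are secreted dimers that bind type I and type II serine/threonine kinase receptors, which phosphorylate SMAD1, SMAD5 and SMAD9. With SMAD4 these enter the nucleus and switch on targets such as the ID genes. ID proteins carry a helix-loop-helix without a DNA-binding region and hold E proteins, transcription factors that direct early B-cell development, away from DNA. Noggin binds BMPs outside the cell and keeps them from their receptors.

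Among the ligands, BMP8A and BMP8B are the members that share the most sequence with another gene, since their coding regions are near copies of each other. In GENCODE v29 (build GRCh38, whereas the processing notes name hg19) BMP8A lies on the plus strand at chr1:39491646-39525935 and BMP8B on the minus strand at chr1:39757182-39788861. Their coding sequences, 1206 bases each, aligned without gaps and differed at 22 positions (98.2% identity). The 120 coding bases with most differences are the start of the reading frame (coding bases 1 to 120), shown with differing bases in capitals:
BMP8A: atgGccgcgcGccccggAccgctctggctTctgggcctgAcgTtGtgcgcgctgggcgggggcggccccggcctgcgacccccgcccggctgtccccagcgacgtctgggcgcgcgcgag
BMP8B: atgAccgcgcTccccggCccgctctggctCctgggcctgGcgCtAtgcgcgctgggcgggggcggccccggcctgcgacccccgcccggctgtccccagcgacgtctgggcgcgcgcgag
Only 7 bases differ in this stretch, all toward its start, and the rest of it is the same in both genes. Further on, coding bases 328 to 815 of both genes are identical over 488 bases. The opening 100 of them are shown because a read lying inside this run cannot be given to either gene by its sequence:
BMP8A and BMP8B: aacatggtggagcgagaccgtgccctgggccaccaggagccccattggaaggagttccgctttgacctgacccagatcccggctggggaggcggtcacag

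Read through windows, 57.6% of the 50-base stretches in the BMP8A coding sequence and 53.6% of those in BMP8B also occurred in a transcript of another gene, on either strand. With 100 bases the share was 36.7% in each. Over the longest transcript, untranslated parts included, the share was 44.0% for BMP8A but only 13.4% for BMP8B with 50 bases, and 28.9% and 8.60% with 100. BMP8A exons also shared 267 bases with PPIEL, a transcribed pseudogene on the opposite strand, and BMP8B exons shared 80 bases with PPIE, likewise on the opposite strand. ID2 exons shared 38 bases with the antisense gene ID2-AS1. The libraries were made with a stranded kit, but no source used here gives the strand setting of the counting, so reads of these partners cannot be told apart. For BMP2, BMP4, BMP6, INHBE, NOG, ID3 and ID4 no stretch of 50 bases was found in another gene. ID2 shared 3.97% of its coding stretches of 50 bases (0.703% over the transcript), with AC104849.1, and none of 100. Of the other ligand pairs, BMP6 and BMP8B had the highest coding identity (69.1%), and BMP2 and BMP4 (67.3%) the longest common run, of 20 bases.

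**Figure D1:**
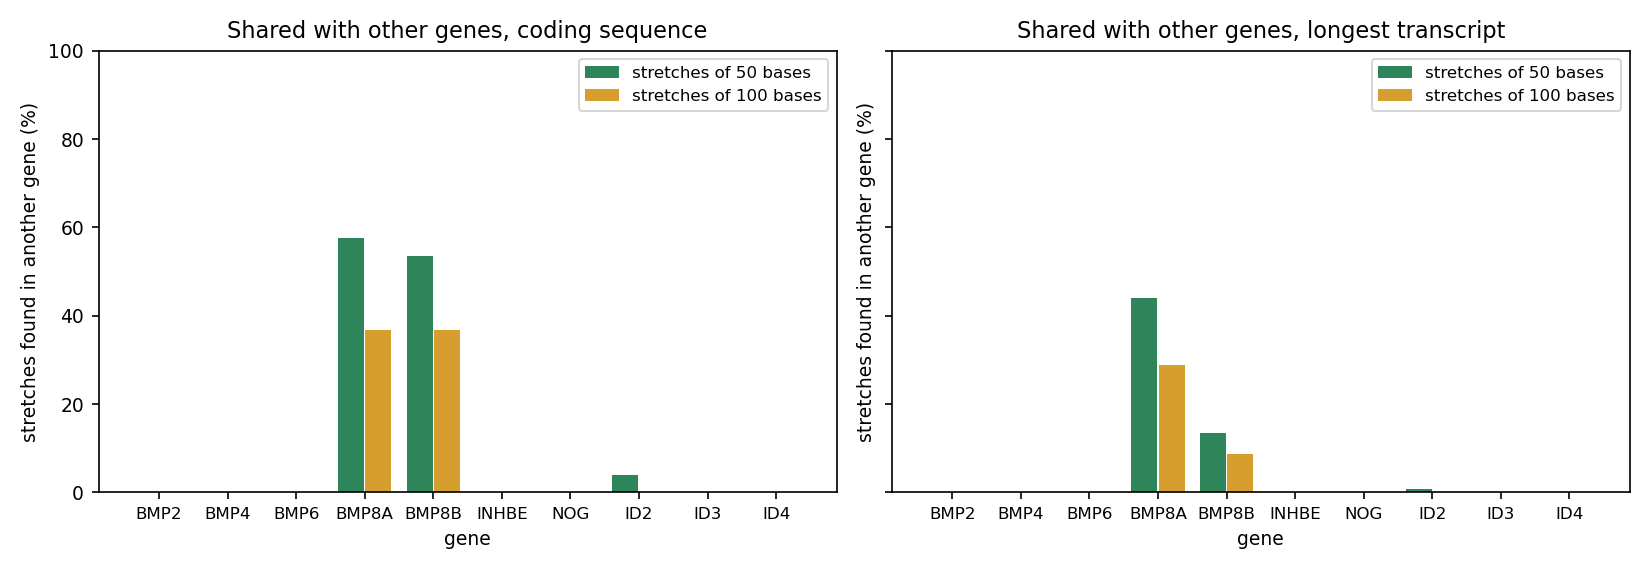
Share of the stretches of 50 bases (green) and 100 bases (yellow) of each member that occur in a GENCODE v29 transcript of another gene, in percent, for the coding sequence (left) and the longest transcript (right). BMP8A and BMP8B are alike by coding sequence (57.6% and 53.6% at 50 bases) but not by transcript (44.0% and 13.4%), ID2 has 3.97% and 0.703% at 50 bases, and the other members have 0.

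The ID genes, in turn, are related in their protein-binding part but separable by sequence. ID2 lies at chr2:8678845-8684453 on the plus strand, ID3 at chr1:23557918-23559794 on the minus strand and ID4 at chr6:19837386-19840684 on the plus strand (GENCODE v29, GRCh38). The 120 coding bases of ID3 with the most ungapped matches to ID2 and ID4 together are shown beside theirs. Bases common to all 3 are in capitals:
ID2: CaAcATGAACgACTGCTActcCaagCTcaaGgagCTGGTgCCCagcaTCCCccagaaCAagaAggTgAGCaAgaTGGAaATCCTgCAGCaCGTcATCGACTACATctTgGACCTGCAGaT
ID3: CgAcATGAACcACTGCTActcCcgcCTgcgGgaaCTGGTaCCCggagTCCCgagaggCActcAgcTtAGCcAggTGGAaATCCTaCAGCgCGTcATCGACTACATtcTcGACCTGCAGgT
ID4: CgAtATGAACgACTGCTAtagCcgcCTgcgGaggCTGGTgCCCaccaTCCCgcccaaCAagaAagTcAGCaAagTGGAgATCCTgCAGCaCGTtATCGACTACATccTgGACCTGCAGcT
These lines begin at coding base 111 of ID2, 126 of ID3 and 198 of ID4. At 43 of the 120 positions the 3 genes were not all the same, and the longest run that any pair shared over the whole coding sequence was 15 bases (ID2 and ID3). An ID3 read of 50 bases therefore has no exact match in ID2 or ID4, unlike a read from the middle of BMP8A.

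Levels of the ligands spanned a wide range, with BMP2 highest and INHBE lowest. BMP2, a ligand with a strong affinity for BMPR1A, had a mean normalized count of 511 in clone 1 and 858 in clone 2, which placed it at the 55.0 and 63.9 percentile of all genes. BMP6, best known as the ligand that drives hepcidin in the liver, had means of 309 and 373 and lay just under the median gene in both tables. BMP4, the closest relative of BMP2, was much lower with means of 40.9 and 54.0. Divided by the length of the longest transcript, BMP2 exceeded BMP4 by 6.66-fold in clone 1 and 8.47-fold in clone 2.

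The remaining ligand members lay below the median gene in both clones. BMP8A had means of 112 and 136 and BMP8B 139 and 141, with the reservation on shared reads given above. Summed, the 2 genes reached 250.4 in clone 1 and 277 in clone 2, a quantity that an exchange of reads between them does not alter. Whether reads matching both genes were counted at all is not known, and the sum would not restore reads left out. INHBE, which encodes the beta subunit of activin E, had means of 16.9 and 24.4 and was the lowest member in both clones, 24.0-fold and 18.1-fold under the median gene. Of the summed ligand level per kilobase, BMP2 made up 37.8% in clone 1 and 45.8% in clone 2. BMP6 followed with 29.5% and 25.8%. BMP8A contributed 17.6% and 15.5% and BMP8B 7.64% and 5.63% on this scale, but with coding length in place of transcript length BMP8A gave 10.4% and 8.94% and BMP8B 12.9% and 9.28%, since the annotated transcript of BMP8B is 4822 bases long and that of BMP8A 1692.

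NOG was the member with the second highest mean in clone 1, at 554, and the third highest in clone 2, at 449. It lay above the median gene in clone 1 (56.7 percentile) and almost on it in clone 2 (50.3 percentile). Per kilobase, the NOG level was 2.06-fold that of BMP2 in clone 1 and 0.995-fold in clone 2. Against all 6 ligand members together, the activin subunit INHBE included, the NOG level per kilobase was 0.779 of their sum in clone 1 and 0.456 in clone 2. With coding length in place of transcript length the values were 0.897 and 0.511. These are transcript levels of a pooled mean and give no measure of secreted protein.

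Of the ID genes, ID3 accounted for nearly all of the level. ID3 had means of 3284 and 4169, stood at place 1129 by mean in clone 1 and at place 1142 in clone 2, and lay 8.09-fold and 9.42-fold above the median gene. ID2, which is needed for innate lymphoid and natural killer cells, had means of 158 and 290.3, both under the median gene. ID4 was close to INHBE at 24.4 and 24.9. Per kilobase, ID3 made up 96.8% of the summed ID level in clone 1 and 95.6% in clone 2, ID2 2.85% and 4.08%, and ID4 0.384% and 0.304%.

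**Figure D2:**
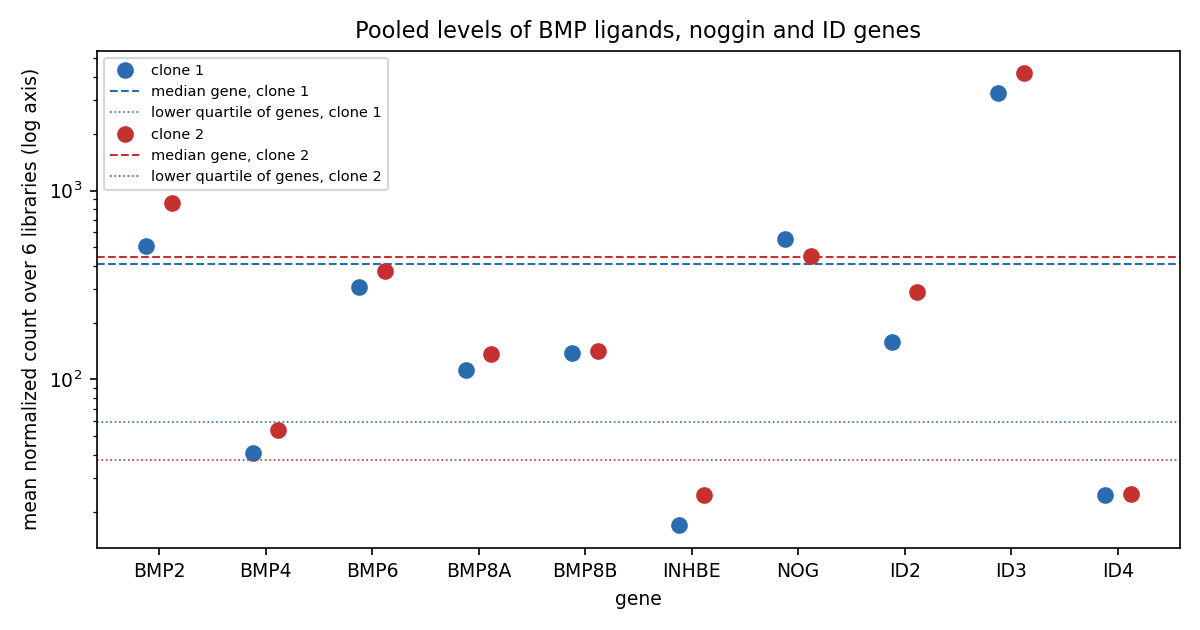
Authors' mean normalized count of each member over the 6 libraries of clone 1 (blue) and of clone 2 (red) on a log axis, with the median gene (dashed) and the lower quartile of all genes (dotted) of each table. ID3 stands alone at 3284 and 4169, BMP2 and NOG lie on or above the dashed lines, and INHBE and ID4 lie between 16.9 and 24.9, under both dotted lines.

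Of the 10 genes, 3 (BMP2, NOG and ID3) exceeded the median gene in each clone and 7 did not. That number was 2 in each clone among genes with a mean of at least 10, and 3 in clone 1 and 5 in clone 2 per kilobase. The median percentile of the members was 33.8 in clone 1 and 39.6 in clone 2, where all genes of a table give 50 by construction. Among genes listed in both tables it was 33.7 and 34.7. The clone 2 table has more rows and a lower lowest mean, so percentiles should not be compared between the clones. In clone 1, BMP4, INHBE and ID4 fell under the lower quartile of genes (59.9), and in clone 2 INHBE and ID4 did (37.7). On the scale that allows genes to be compared with each other, the mean per kilobase of longest transcript, the order in clone 1 was ID3 (2625), NOG (293), BMP2 (142), BMP6 (111), ID2 (77.5), BMP8A (66.1), BMP8B (28.7), BMP4 (21.3), ID4 (10.4) and INHBE (6.97). In clone 2 it was ID3 (3333), BMP2 (238), NOG (237), ID2 (142), BMP6 (134), BMP8A (80.4), BMP8B (29.3), BMP4 (28.2), ID4 (10.6) and INHBE (10.1). ID3 was followed by a gap of 8.96-fold in clone 1 and 14.0-fold in clone 2 to the next gene. Without the spread over libraries it cannot be said which neighbours differ, and pairs such as BMP2 and NOG or ID4 and INHBE in clone 2 are nearly level.

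Of this pathway's signal transduction genes, SMAD1, SMAD5, ENG and BAMBI had higher levels per kilobase than any ligand member in both clones. For SMAD4 and SMURF1 this held in clone 1 only, and for the other SMADs, SMURF2 and the other receptors in neither clone. Of 57 other genes listed for the pathway, 35 had a row in clone 1 and 38 in clone 2, and 16 and 17 of these lay above the median gene. This list includes 3 E proteins, partners of the ID proteins, all above the median gene in both clones. By construction, as many genes of a table lie above the median gene as below it. Among the SMADs, SMAD5 had means of 1492 and 2014, SMAD4 1444 and 1852 and SMAD1 961 and 1275. The BMP SMADs were thus led by SMAD5 by mean and by SMAD1 per kilobase (292 and 387, against 213 and 287 for SMAD5). SMAD9 was lower, at 278 and 323. The inhibitory SMAD7 had means of 42.0 and 46.4. SMAD6, the other inhibitory SMAD, had a row in clone 2 only, at 1.42, under the lowest mean listed in clone 1 (2.52). The ubiquitin ligases SMURF1 and SMURF2 had 869 and 1267, and 381 and 475.

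Receptors were unevenly represented. BMPR1A, the type I receptor for BMP2 and BMP4, had means of only 23.7 and 26.5, and BMPR1B had no row in either table. The type I receptor ACVR1, which binds BMP6 with a type II partner, had 161 and 208. Of the type II receptors, BMPR2 had means of 518 and 609, ACVR2B 629 and 687 and ACVR2A 96.1 and 127, yet per kilobase BMPR2 (45.2 and 53.2) and ACVR1 (52.9 and 68.3) came to similar values. The coreceptors RGMA and RGMB had 600.1 and 705, and 563 and 871. ENG, a coreceptor of the TGF-beta superfamily, was the highest of this class at 1096 and 1673. BAMBI, a receptor-like protein without a kinase that dampens signaling, had 483 and 684. ACVR1B, an activin type I receptor, had 501 and 695. ACVRL1 had a row in clone 2 only, at 1.71, under the lowest mean listed in clone 1 (2.52).

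Few other BMP or activin ligands on the list reached the level of the ligand members. Of 14 other ligands on the list, 9 had no row in either table. BMP7, GDF6, INHA and INHBC had means between 2.77 and 7.74, and GDF11, which signals through the activin branch, was the exception at 2295 and 2854. Of 13 other antagonists, 7 had a row, among them FSTL1 (730.4 and 1184) and TWSG1 (256 and 366).

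Other BMP targets did not share the level of ID3. ID1, a target widely used as a readout of BMP signaling, had means of 2.57 and 2.09, at the 0.0929 percentile of clone 1 and the 4.47 percentile of clone 2, close to the lowest means listed (2.52 and 1.13). MSX1 had 6.01 and 7.33 and HEY2 4.46 and 7.23, and HEY1, MSX2 and HAMP had no row. ATOH8 had a row in clone 2 only, at 1.61, under the lowest mean listed in clone 1.

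**Figure D3:**
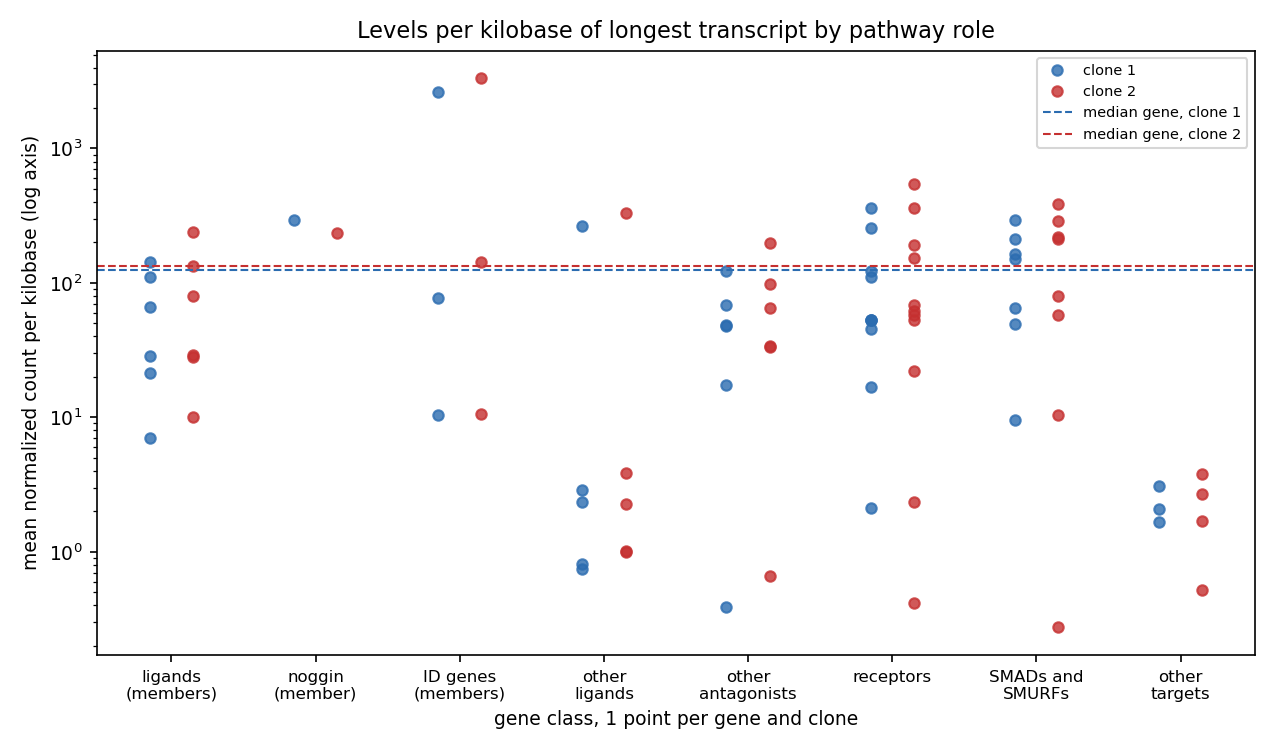
Mean normalized count per kilobase of longest transcript (log axis) for the members by role and for most of the other listed pathway genes with a row, 1 point per gene in clone 1 (blue) and clone 2 (red), with the median gene of each table dashed. ID3, at 2625 and 3333, lies at the top of the plot, while the other BMP targets lie between 0.52 and 3.78.

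Between the clones the members kept their broad order, with a few moves. The tables were normalized separately. Library titles also carry the letter A for clone 1 and B for clone 2, and its meaning is not given. Clone, normalization and this letter therefore cannot be told apart. Over 15582 genes listed in both tables the median of the per-gene ratios, clone 2 over clone 1, was 1.29. Ratios are given relative to that shift. Of the 10 members, 4 were then higher in clone 2 and 6 lower, with a median of -0.05 on the log2 scale; without the shift taken out, 9 were higher, as were 91.9% of all shared genes. ID2 was highest, at a ratio of 1.42 (log2 0.51), and 10.3% of shared genes lay at least as far from the median. BMP2 followed at 1.30 (log2 0.38, 14.7% of genes at least as far).

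NOG moved most in the other direction, at a ratio of 0.628 (log2 -0.67), a distance reached by 6.66% of shared genes, and it was the 1 member whose mean was lower in clone 2 even as deposited. BMP8B and ID4 had log2 ratios of -0.34 each, with 17.0% of genes at least as far in both cases. The ratio for the sum of BMP8A and BMP8B was -0.22. ID3 (-0.02), BMP4 (0.03), BMP8A (-0.08) and BMP6 (-0.09) lay within the middle 50 percent of shared genes, from -0.11 to 0.11, and INHBE had 0.16. Among genes with a mean of at least 50 in both tables, 90 percent lay between -0.29 and 0.29, so that of the members above that minimum ID2, BMP2, NOG and BMP8B were outside and ID3, BMP6 and BMP8A inside. These ratios have no replicate error, since each mean pools both drug states, and a change in 1 state of a clone cannot be told apart from a difference that both states share.

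**Figure D4:**
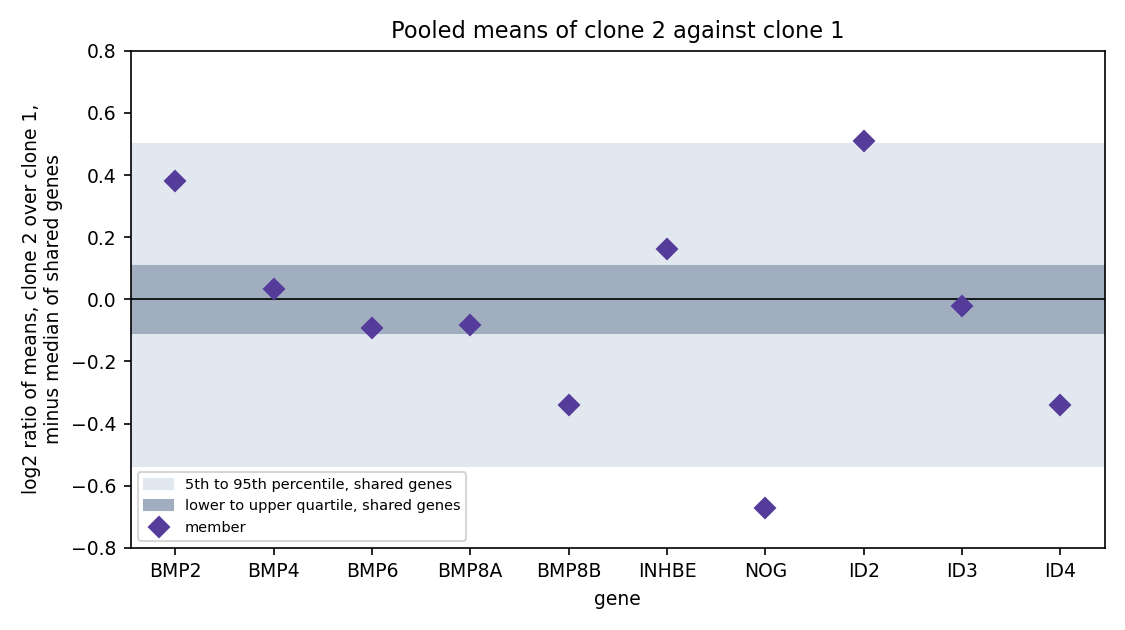
Log2 ratio of the pooled means, clone 2 over clone 1, minus the median of 15582 shared genes, for each member (diamonds), with the middle 50 percent (dark band) and the 5th to 95th percentile (light band, -0.54 to 0.50) of those genes. NOG at -0.67 lies below the light band, ID2 at 0.51 just above it, and the other 8 members lie inside.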

How the data were processed

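Stranded mRNA libraries were prepared by the authors, 3 per group. Among the tools in the submitters' processing notes are DESeq2, BWA, bedtools (2.19.0) and Picard (1.107), and the build is hg19, with no role stated for any tool. Which annotation, counter and strand setting were used is not given in the sources used here. Of the 9 columns of each table, the mean normalized count was used, a signal that the authors deposited as a mean over the 6 libraries of a clone. The authors' log2 fold changes, standard errors, test statistics, p-values and calls were not used. Members and lists were chosen with earlier results of these data known. All members and the fixed pathway classes were named by rule, and some listed genes are counted but not reported here.

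Percentiles were computed over all genes of a table. A symbol held by 2 genes (1 per table) was left out of lookups, and 21 and 22 symbols stored as calendar dates stayed as they were. Lengths came from GENCODE 29, matched for 16011 symbols directly and 403 through RefSeq synonyms of 16875. Coding sequences were aligned with Biopython 1.88. In place of the planned protein identity, for which no protein table was given, identity of coding sequences and shared stretches were computed, chosen after seeing the data. Percentile, centring and matching steps were tested on simulated data. No test was run. Depth per library is unknown, so no counting interval is given.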

Additional observations from a re-analysis of the deposited data

How the results depend on the processing

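No paired analysis was possible because the result comes from no test and the pooled means carry no replicate numbers, and for the same reason no library could be left out. Without centring, 9 members in place of 4 were higher in clone 2, and the log2 ratios of BMP6 (0.27), BMP8A (0.28), BMP8B (0.028), ID3 (0.34) and ID4 (0.027) turned from negative to positive. With column sums, genes of at least 50 or a pseudocount of 1, the number stayed at 4. Per kilobase, 5 members in place of 3 exceeded the median gene in clone 2, the added ones being ID2 and BMP6, and the median percentile was 39.1 in clone 1 and 45.8 in clone 2. Among genes with a mean of at least 10, 2 members exceeded the median gene in each clone and the median percentile was 26.1 and 28.7, and among genes shared by the clones it was 34.7 in clone 2. With coding length, 6 of 10 members changed place in clone 1 and 6 in clone 2, and ID3 stayed highest and INHBE lowest. The depth per library is unknown, and INHBE, ID4 and BMP4 had the lowest means of the members.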
